A study of Mus musculus with 4 samples.

Results

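The genes described here encode the pore-forming and accessory subunits of potassium channels (Kcn), voltage-gated sodium channels (Scn), voltage-gated calcium channels (Cacn) and hyperpolarization-activated channels (Hcn). They were chosen by symbol alone: a probe set entered if its only annotated symbol was Kcn, letters and a number, Scn, a number and a or b, Cacn, letters and a number with an optional last letter, or Hcn and a digit. This gave 139 probe sets for 121 genes, out of 21789 probe sets with 1 symbol for 19938 genes. RNA came from mouse embryonic stem (ES) cells of the D3 line, profiled in 4 conditions with 1 array each. Embryoid bodies (EBs), aggregates in which ES cells start to form derivatives of the germ layers, were kept for 2 days in hanging drops and 5 days in suspension with the RXR agonist bexarotene at 50 nM, with retinoic acid (RA), or with no ligand (untreated). Undifferentiated ES cells were the fourth condition. The labels give 5 µM for RA and the article gives a nanomolar dose, so the amount of RA is not settled and the ligands were not given at equal doses.

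Potassium channels set the resting potential and end action potentials. Voltage-gated sodium channels open the action potential in neurons and muscle, calcium channels turn depolarization into calcium entry, and hyperpolarization-activated channels pace rhythmic cells. Most work as complexes in which a pore-forming subunit (alpha or alpha1) is joined by accessory subunits (beta, gamma, KChIP or KCNE proteins) that change gating or traffic. Undifferentiated ES cells are not excitable cells, and excitable cells such as neurons and cardiomyocytes are among the derivatives that EBs form.

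Values are log2 signals as deposited, and where a gene has several probe sets the brightest on average was used. A gene is called higher or lower where 2 arrays differ by more than 1.5-fold, which is 0.585 on the log2 scale. There are no replicates, so each call is a difference between 2 arrays, no p-value is given, and fewer cells of a type cannot be told apart from less RNA per cell. Over all genes the robust SD of the difference was 0.115 between the bexarotene and RA arrays and 0.317 between untreated EBs and ES cells. Signals of many channel genes were low. Of the 121 genes, 51 reached the array median, about 6.7 on the log2 scale, on at least 1 array and 70 on none, and 12 to 14 per array lay below its lower quartile. The labels of EBs and ES cells were checked on 8 pluripotency markers, all of which were lower in untreated EBs (median log2 difference from ES cells -2.61). The same markers differed between the EB arrays: with bexarotene none of the 8 was past 1.5-fold (median 0.28), with RA 5 were higher (median 0.65), and bexarotene EBs were below RA EBs with a median of -0.29. Their part in the channel differences was not tested. Neuronal markers had a median signal of 8.01 in bexarotene EBs, 8.69 in RA EBs, 6.99 in untreated EBs and 7.05 in ES cells. Cardiomyocyte markers had medians of 6.58, 6.63, 7.42 and 6.98 in the same order.

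Few channel genes differed between ligand-treated and untreated EBs. With bexarotene, 2 channel genes were higher (1.65% of 121, against 1.48% of all genes) and 8 were lower (6.61%, against 2.15%). With RA, 6 were higher (4.96%, against 2.07% of all genes) and 7 were lower (5.79%, against 2.22%). The share that was higher with bexarotene was near that of all genes and the other 3 shares were above it, without a test. The medians over the channel genes were close to 0, at 0.003 with bexarotene and 0.06 with RA on the log2 scale, beside -0.008 and 0 over all genes. Across both ligands 15 channel genes were past the threshold at least once, 6 of them higher and 9 lower, and none was higher with one ligand and lower with the other. Both ligands were compared with the same untreated array, so these calls are not independent of each other. The matching counts over all genes are not given, so nothing is read from the 15 or from the lack of opposite calls. Taken singly, 8.26% of channel genes were past the threshold in either direction with bexarotene (3.63% of all genes) and 10.7% with RA (4.29%). Of the 15 genes, 7 reached the array median on the brighter array of a comparison that called them, and the other 8 (Scn9a, Scn7a, Kcnk10, Kcnc1, Kcnj14, Kcnh5, Kcnmb1 and Kcnt2) are named because their differences were seen.

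**Figure D1:**
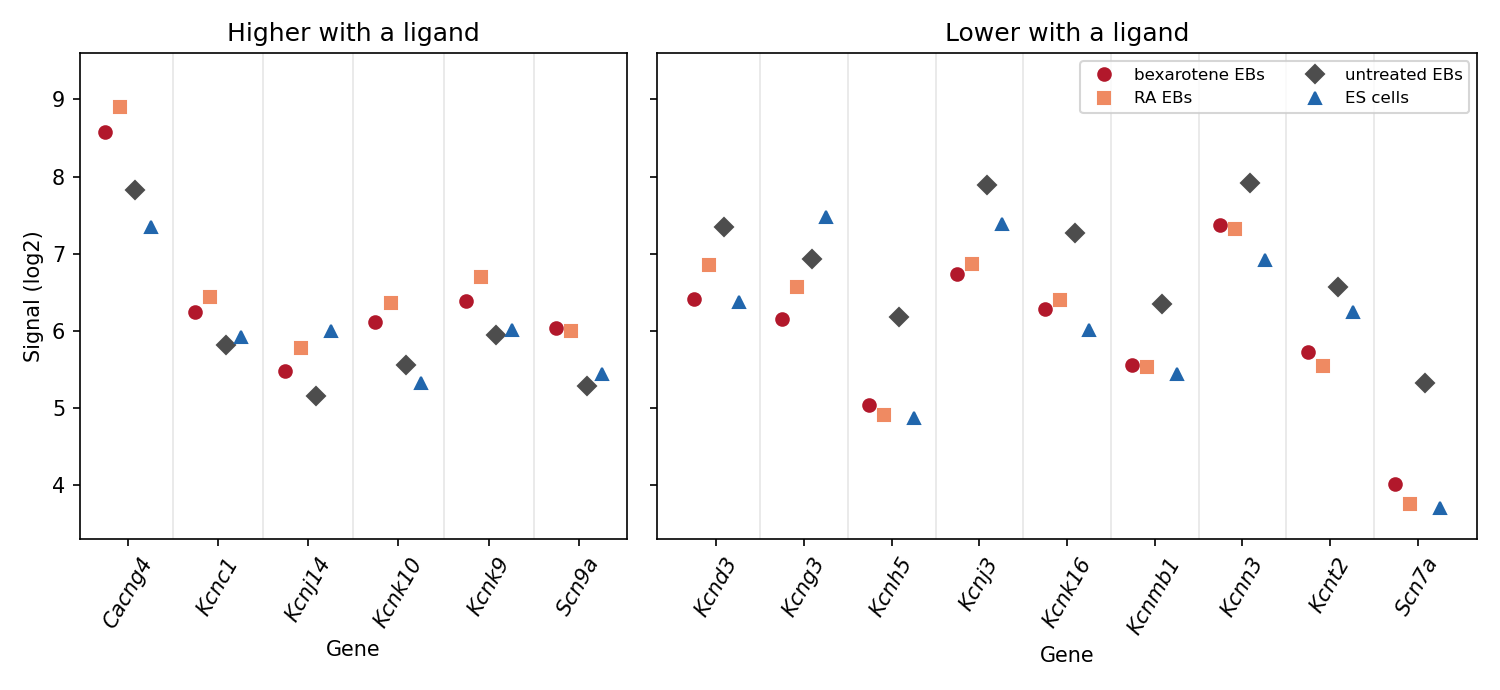
Log2 signal of the 15 channel genes past 1.5-fold with at least 1 ligand, 1 point per array and no replicates, with the 6 higher genes on the left and the 9 lower genes on the right. Cacng4 stands at 8.58 with bexarotene and 8.90 with RA, above 7.83 in untreated EBs, whereas Scn7a stands at 4.02 and 3.76, below 5.33.

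Among the higher genes, Cacng4 differed most. It encodes gamma-4, a member of the calcium channel gamma family that also accompanies AMPA-type glutamate receptors. Its log2 signal was 8.58 in bexarotene EBs, 8.90 in RA EBs, 7.83 in untreated EBs and 7.34 in ES cells. Both ligand arrays were above the untreated array, by 1.68-fold with bexarotene and 2.11-fold with RA, and RA EBs were 2.95-fold above ES cells. Of the other 6 gamma subunit genes, none was past 1.5-fold with either ligand.

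Scn9a, the sodium channel alpha subunit of sensory and sympathetic neurons, was higher by similar amounts with both ligands. Its signal was 6.03 in bexarotene EBs, 5.996 in RA EBs, 5.29 in untreated EBs and 5.44 in ES cells, so that the ligand arrays were 1.68-fold and 1.63-fold above the untreated array. The call rests on 1 of its 2 probe sets, since the dimmer one had log2 differences of 0.27 and 0.21.

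The remaining higher genes were past the threshold with RA alone. Kcnk9 and Kcnk10 encode tandem pore domain channels, which carry the background potassium current. Kcnk10 had a signal of 6.11 in bexarotene EBs, 6.36 in RA EBs, 5.56 in untreated EBs and 5.32 in ES cells, and was 1.74-fold higher with RA and 1.47-fold higher with bexarotene. Kcnk9 had a signal of 6.39 in bexarotene EBs, 6.70 in RA EBs, 5.95 in untreated EBs and 6.01 in ES cells, and was 1.68-fold higher with RA. In both genes the order of the EB arrays was RA, bexarotene, untreated, from high to low. Kcnc1 encodes a potassium channel of fast-spiking neurons, and its signal was 6.25 with bexarotene, 6.44 with RA, 5.81 in untreated EBs and 5.92 in ES cells. Kcnj14, an inward rectifier gene, had signals of 5.48, 5.79, 5.16 and 5.996 in the same order of arrays, so its RA value was past 1.5-fold above untreated EBs and still below ES cells. Neither Kcnc1 nor Kcnj14 kept its call when the arrays were aligned by loess.

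Neuronal markers were higher with both ligands as well, 9 of 12 with each and none lower, with median log2 differences of 1.22 for bexarotene and 1.66 for RA. The part of neuronal cells in the channel differences was not tested. Channel genes known from neurons were called in both directions. Scn9a was higher with both ligands and Kcnc1 with RA, as described. Kcnh5 was lower with both ligands (log2 differences of -1.15 with bexarotene and -1.28 with RA), as was Kcnj3 (-1.15 and -1.02). Kcnd3 was lower with bexarotene (-0.94). Scn2a, Scn3a, Kcnq3, Cacna1a, Cacna1b and Kcnj6 were not past 1.5-fold with either ligand, with log2 differences from -0.19 to 0.13 for bexarotene and from -0.21 to 0.45 for RA. With each ligand 4 of these 6 differences were above 0. Scn3a had the highest of these values, at a signal of 4.65 with bexarotene, 5.07 with RA, 4.63 in untreated EBs and 4.96 in ES cells, all below the lower quartile of their arrays, as were those of Kcnj6.

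The largest difference among all 121 genes was that of Scn7a, which encodes an atypical sodium channel that responds to sodium concentration rather than voltage. Its signal was 4.02 in bexarotene EBs, 3.76 in RA EBs, 5.33 in untreated EBs and 3.71 in ES cells. Untreated EBs stood above the other 3 arrays, and the ligand arrays were 2.49-fold (bexarotene) and 2.97-fold (RA) lower than it. With signals below the lower quartile raised to it, neither call remained. In the order of gene starts on GRCm38.p6, Scn1a, Scn9a and Scn7a follow each other on chromosome 2, and Scn9a and Scn7a differed in opposite directions while Scn1a had log2 differences of 0.09 and 0.13.

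The 250 bases upstream of the starts of Scn9a and Scn7a are shown because these neighbours differed in opposite directions, and those of Kcnj3 and Kcnd3 because, of the 9 genes lower with a ligand, they and Scn7a hold the E-box CAGCTG. The sequences are from RefSeq (GRCm38.p6), 5′ to 3′ on the gene's strand: Scn9a at chr2:66634963-66635212 and Scn7a at chr2:66784911-66785160, both on the minus strand, and Kcnj3 at chr2:55435720-55435969 and Kcnd3 at chr3:105451640-105451889 on the plus strand. Capitals mark CAGCTG in Scn7a, Kcnj3 and Kcnd3, and in Scn9a the reverse complement of AGTTCA, a variant of the half-site bound by retinoid receptors.
Scn9a: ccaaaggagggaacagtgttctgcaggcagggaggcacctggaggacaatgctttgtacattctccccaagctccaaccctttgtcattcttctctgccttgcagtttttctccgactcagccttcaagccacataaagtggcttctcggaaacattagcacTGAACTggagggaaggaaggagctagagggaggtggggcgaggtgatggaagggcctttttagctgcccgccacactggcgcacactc
Scn7a: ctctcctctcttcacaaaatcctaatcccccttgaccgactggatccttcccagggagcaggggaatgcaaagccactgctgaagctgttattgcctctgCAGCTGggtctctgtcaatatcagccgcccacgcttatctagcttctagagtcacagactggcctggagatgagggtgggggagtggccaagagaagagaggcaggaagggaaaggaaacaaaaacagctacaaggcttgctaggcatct
Kcnj3: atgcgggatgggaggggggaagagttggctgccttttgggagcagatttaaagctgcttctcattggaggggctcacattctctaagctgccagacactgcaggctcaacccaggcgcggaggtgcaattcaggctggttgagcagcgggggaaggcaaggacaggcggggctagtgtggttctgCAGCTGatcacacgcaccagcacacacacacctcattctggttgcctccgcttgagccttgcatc
Kcnd3: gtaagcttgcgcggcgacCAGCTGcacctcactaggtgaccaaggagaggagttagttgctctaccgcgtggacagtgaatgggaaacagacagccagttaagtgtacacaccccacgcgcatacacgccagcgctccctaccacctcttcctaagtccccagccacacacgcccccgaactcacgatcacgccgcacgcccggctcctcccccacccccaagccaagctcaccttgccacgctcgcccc

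These matches are descriptions of letters and not of bound sites. Both strands of every window of this length were searched, and CAGCTG was found in 4271 of 32851 RefSeq promoter windows. It was found in 31 of 127 windows (24.4%) for the 92 channel genes with a promoter entry, and in 3 of 9 windows of the genes lower with a ligand. AGTTCA was found in 11.8% of all windows and in 16 of 127 windows of channel genes. The half-site AGGTCA was found in 14.0% of all windows and 7.87% of channel gene windows, and GGTTCA in 8.85% and 11.8%. Among the genes called with a ligand, Cacng4, Kcnk9 and Kcnj14 have no promoter entry and were not searched. In the others, AGGTCA was found in 1 of the 2 windows of Kcnk10 and GGTTCA in the other and in that of Kcnmb1. The direct repeat of AGGTCA with 5 bases of any kind between its copies was in 3 of all windows and in none of those of channel genes. The GC box GGGCGG was in 32.7% of all windows and 41.7% of channel gene windows.

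Kcnj3 encodes a subunit of the G protein-activated inward rectifier that slows the atrium and quiets neurons. Its signal was 6.74 in bexarotene EBs, 6.87 in RA EBs, 7.89 in untreated EBs and 7.38 in ES cells. Both ligand arrays lay below the untreated and the ES cell array, by 2.22-fold and 2.02-fold relative to untreated EBs. Kcnj5, which encodes its partner in the atrium, was not past 1.5-fold, with log2 differences of -0.47 with bexarotene and -0.20 with RA. Kcnj6 and Kcnj9, which encode its partners in neurons, had log2 differences between -0.12 and 0.10.

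Voltage-gated potassium channel genes supplied 3 of the lower genes. Kcnh5, an ether-a-go-go channel gene of the nervous system, had a signal of 5.04 in bexarotene EBs, 4.91 in RA EBs, 6.19 in untreated EBs and 4.88 in ES cells, and was 2.21-fold and 2.43-fold lower with the ligands. Only its untreated signal stood apart from the other 3 arrays. Kcnd3, which carries a transient outward current in heart and brain, had a signal of 6.41 in bexarotene EBs, 6.86 in RA EBs, 7.35 in untreated EBs and 6.38 in ES cells. It was 1.92-fold lower with bexarotene, whereas RA EBs lay between the bexarotene and untreated arrays, with a log2 difference of -0.50 from untreated EBs. Kcng3, a modifier subunit with no current of its own, had a signal of 6.15 in bexarotene EBs, 6.57 in RA EBs, 6.93 in untreated EBs and 7.48 in ES cells. Its EB arrays were all below the ES cell array, and it was 1.72-fold lower with bexarotene and had a log2 difference of -0.36 with RA. Kcnd3 and Kcng3 were among the 3 channel genes with the lowest bexarotene minus RA differences, at -0.44 and -0.42, and neither was past 1.5-fold between the ligands.

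Potassium channels opened by internal calcium or sodium also lay among the lower genes. This class has 12 genes. Bexarotene EBs had 2 lower (16.7%, against 2.15% of all genes) and RA EBs 3 (25%, against 2.22%), with none higher in either. With so few genes these shares are coarse, and they were not tested. Kcnt2, a sodium-activated channel gene, had a signal of 5.73 in bexarotene EBs, 5.55 in RA EBs, 6.56 in untreated EBs and 6.25 in ES cells, and was 1.78-fold and 2.03-fold lower. Kcnmb1, the accessory subunit of the large-conductance channel in smooth muscle, had a signal of 5.56 in bexarotene EBs, 5.53 in RA EBs, 6.35 in untreated EBs and 5.44 in ES cells, and was 1.73-fold and 1.77-fold lower. Kcnma1, which encodes the pore of the same channel, had log2 differences of -0.11 and 0.08 on the brighter of its 2 probe sets. The dimmer one had -0.26 and -0.21. Kcnn3, a small-conductance calcium-activated channel gene, was near the threshold. Its signal was 7.38 in bexarotene EBs, 7.32 in RA EBs, 7.92 in untreated EBs and 6.92 in ES cells, and it was called lower with RA (1.52-fold) and not with bexarotene (1.46-fold). The RA call was lost with quantile normalization.

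Kcnk16, a tandem pore domain channel gene of pancreatic islets, was the only lower gene of its class. Its signal was 6.29 in bexarotene EBs, 6.40 in RA EBs, 7.27 in untreated EBs and 6.01 in ES cells, which made it 1.98-fold lower with bexarotene, and 1.83-fold lower in RA EBs. Kcnk5, the neighbouring channel gene on chromosome 14, had log2 differences of -0.009 and 0.16.

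**Figure D2:**
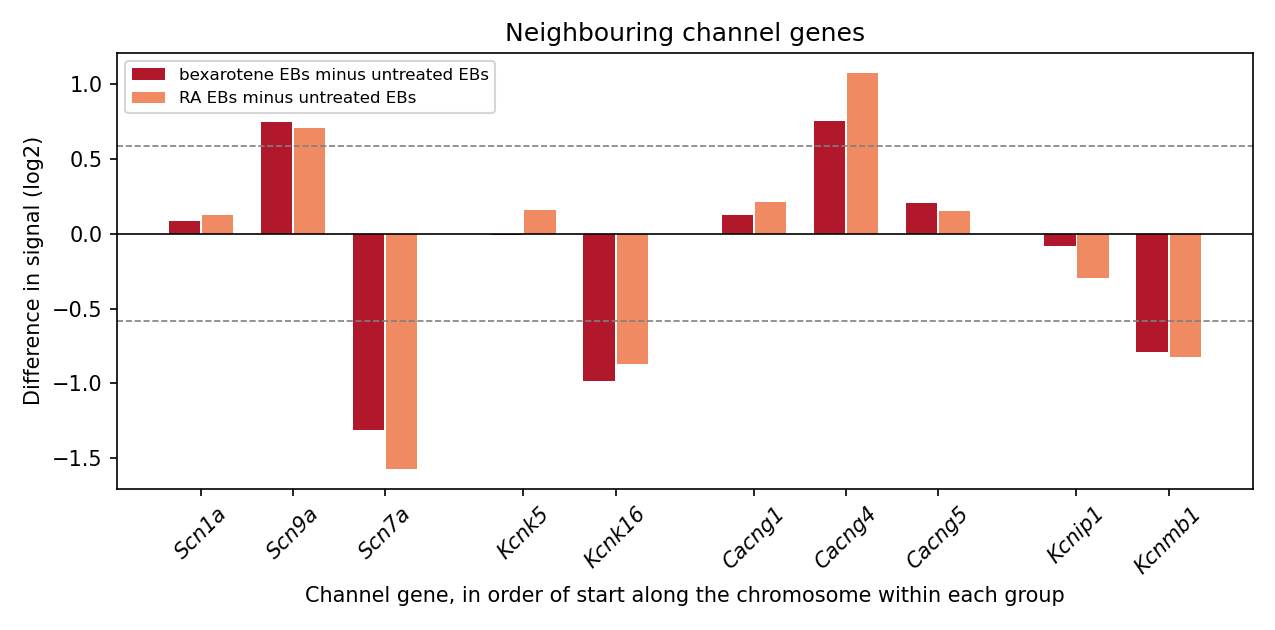
Log2 differences of bexarotene EBs and RA EBs from untreated EBs for 10 channel genes in 4 groups of neighbours, with dashed lines at 1.5-fold. Scn9a is above and Scn7a below 0 with both ligands, Kcnk16, Cacng4 and Kcnmb1 are past the lines, and their channel neighbours Kcnk5, Cacng1, Cacng5 and Kcnip1 are not.

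The 9 genes lower with a ligand are also described against ES cells. They were chosen by low signals on the ligand arrays and a high signal on the untreated array, and the same arrays enter these values, so nothing is read from the counts. Their median log2 difference from ES cells was 0.12 in bexarotene EBs and 0.05 in RA EBs. None was past 1.5-fold higher than ES cells in either ligand array (10.2% of all genes with bexarotene and 10.5% with RA were), and 2 were past it lower in each (9.69% and 9.19% of all genes), with the lowest values for Kcng3 at -1.33 with bexarotene and -0.91 with RA. Of the same genes, 6 (Scn7a, Kcnh5, Kcnk16, Kcnn3, Kcnd3 and Kcnmb1) were past 1.5-fold higher in untreated EBs than in ES cells, where 11% of all genes were, and Scn7a was not once signals below the lower quartile were raised to it. The 6 genes higher with a ligand were chosen by high signals on the same ligand arrays, so nothing is read from their values either. Their medians relative to ES cells were 0.48 with bexarotene and 0.62 with RA. With each ligand 3 were past 1.5-fold higher than ES cells (10.2% of all genes with bexarotene and 10.5% with RA were).

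Cardiomyocyte markers were lower with both ligands for 3 of 9 genes (Myh7, Actc1 and Myl7) and higher for none, with medians of -0.35 and -0.41. Endothelial markers were lower with both ligands for 2 of 5 genes (Kdr and Cdh5) and higher for none, with medians of -0.32 and -0.33. The part of cardiac or endothelial cells in the lower channel genes was not tested. Of the channel genes known from the heart, Kcnj3 was lower with both ligands and Kcnd3 with bexarotene, and Kcnj5 had the values given above. Hcn4, the pacemaker channel gene, had a signal of 7.23 in bexarotene EBs, 7.19 in RA EBs, 7.09 in untreated EBs and 6.51 in ES cells, with the EB arrays close together. Cacna1c, the L-type calcium channel gene of heart muscle, and Kcnq1, a delayed rectifier gene, had log2 differences between -0.01 and 0.15.

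**Figure D3:**
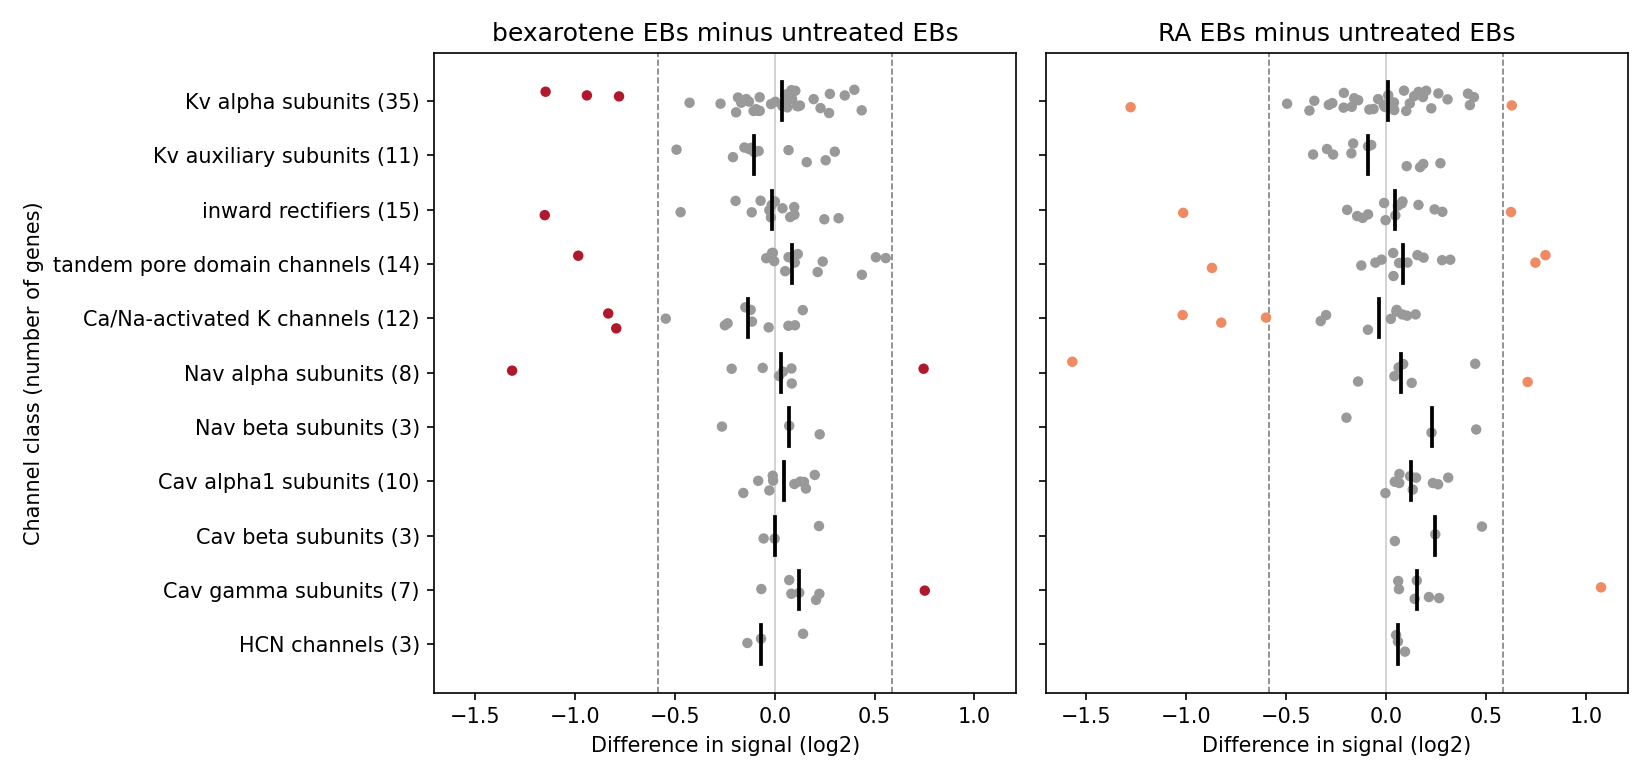
Log2 differences from untreated EBs for the 121 channel genes by class, with bexarotene on the left and RA on the right. Each point is 1 gene, coloured where past 1.5-fold (dashed lines), and black bars are class medians, which lie between -0.13 and 0.25.

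The classes were alike in that most members were not past the threshold. None of the 11 accessory subunit genes of voltage-gated potassium channels, 3 Nav beta, 10 Cav alpha1, 3 Cav beta or 3 HCN genes was past 1.5-fold with either ligand. Among the 35 Kv alpha genes, 3 were lower with bexarotene and 1 with RA, and 1 was higher with RA. The 15 inward rectifiers had 1 lower gene with each ligand and 1 higher with RA, and the 14 tandem pore domain channels had 1 lower with each and 2 higher with RA. Over all genes, 1.48% were higher and 2.15% lower with bexarotene, and 2.07% were higher and 2.22% lower with RA. Cav alpha1 genes stayed within -0.16 and 0.20 with bexarotene and within -0.003 and 0.31 with RA.

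Between bexarotene and RA, 0 of 121 channel genes were past 1.5-fold in either direction, where 0.196% of all genes were higher and 0.296% lower. Differences ran from -0.44 for Kcnd3 to 0.26 for Scn7a, with a median of -0.04 beside -0.01 over all genes. Bexarotene was below RA for 74 channel genes and above it for 46, beside 10764 below and 9112 above among all 19938 genes. Neuronal markers had a median of -0.45 in this comparison, with 3 of 12 past 1.5-fold lower in bexarotene EBs, and their part in the channel values was not tested.

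Relative to ES cells, untreated EBs had 13 channel genes higher (10.7%, against 11% of all genes) and 10 lower (8.26%, against 8.52%), so the shares were near those of all genes. With quantile normalization the split was 11 higher and 13 lower. The median log2 difference was -0.06, beside -0.04 over all genes. Beyond the 6 genes already described, 7 were higher in untreated EBs and were past 1.5-fold with neither ligand. Kcnq5, a channel gene that limits neuronal firing, had a signal of 7.58 in bexarotene EBs, 7.37 in RA EBs, 7.51 in untreated EBs and 6.57 in ES cells, and was 1.91-fold higher in untreated EBs. All 3 EB arrays stood above ES cells by a like amount.

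Pore-forming calcium channel genes gave 3 of the higher genes. The T-type genes Cacna1g and Cacna1h, whose channels open near the resting potential, were 1.60-fold and 1.53-fold higher in untreated EBs than in ES cells. Cacna1g had a signal of 7.12 in bexarotene EBs, 7.27 in RA EBs, 7.27 in untreated EBs and 6.60 in ES cells. Cacna1h had 7.59, 7.74, 7.67 and 7.06 in the same order. The L-type gene Cacna1d, which supports pacemaking, had 6.94, 6.99, 6.95 and 6.31 and was 1.56-fold higher. In these 3 genes every EB array was above the ES cell array. Hcn4 was just past the threshold at a log2 difference of 0.59, and neither it nor Cacna1h kept the call with quantile normalization. Kcne3, an accessory subunit gene of epithelial potassium channels, had a signal of 6.07 in bexarotene EBs, 6.04 in RA EBs, 6.22 in untreated EBs and 5.35 in ES cells, and was 1.82-fold higher in untreated EBs. Kcnj2, the main inward rectifier gene of muscle, had 5.21, 5.32, 5.41 and 4.67 in this order and was 1.66-fold higher, a call that was lost with low signals raised to the lower quartile. For both, the EB arrays lay close together and above ES cells.

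The 10 lower genes included Cacna1a, the pore of the P/Q-type channel that triggers transmitter release. Its signal was 7.75 in bexarotene EBs, 7.88 in RA EBs, 7.62 in untreated EBs and 8.80 in ES cells, and it was 2.26-fold lower in untreated EBs. All EB arrays were below ES cells for this neuronal channel gene. Scn3b, a sodium channel beta subunit gene, had a signal of 6.57 in bexarotene EBs, 6.94 in RA EBs, 6.49 in untreated EBs and 7.47 in ES cells, and was 1.96-fold lower. Cacng7, a gamma subunit gene whose product also accompanies AMPA receptors, had 10.2, 10.3, 10.3 and 11.1 in the same order of arrays and was 1.78-fold lower in untreated EBs.

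Genes of potassium channels made up the rest. Kcnh3, a voltage-gated channel gene of the forebrain, was 1.86-fold lower in untreated EBs, and Kcnip2, whose product KChIP2 brings Kv4 channels to the surface, 1.81-fold lower. Kcnd3, a Kv4 gene, was 1.96-fold higher in the same comparison. The tandem pore domain genes Kcnk5 and Kcnk4 were 1.76-fold and 1.51-fold lower, and the inward rectifier genes Kcnj14 and Kcnj10, which is known from glia, 1.79-fold and 1.54-fold lower. Kcnk4 and Kcnj10 were not past the threshold when the arrays were aligned by loess. Kcnn4, the intermediate-conductance calcium-activated channel of blood cells and epithelia, was 1.63-fold lower, opposite to its relative Kcnn3. Of the 121 genes, 90 were past 1.5-fold in none of the 4 comparisons. The matching share of all genes is not given, so nothing is read from this count. Between untreated EBs and ES cells alone, 19% of channel genes and 19.5% of all genes were past it in either direction.

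**Figure D4:**
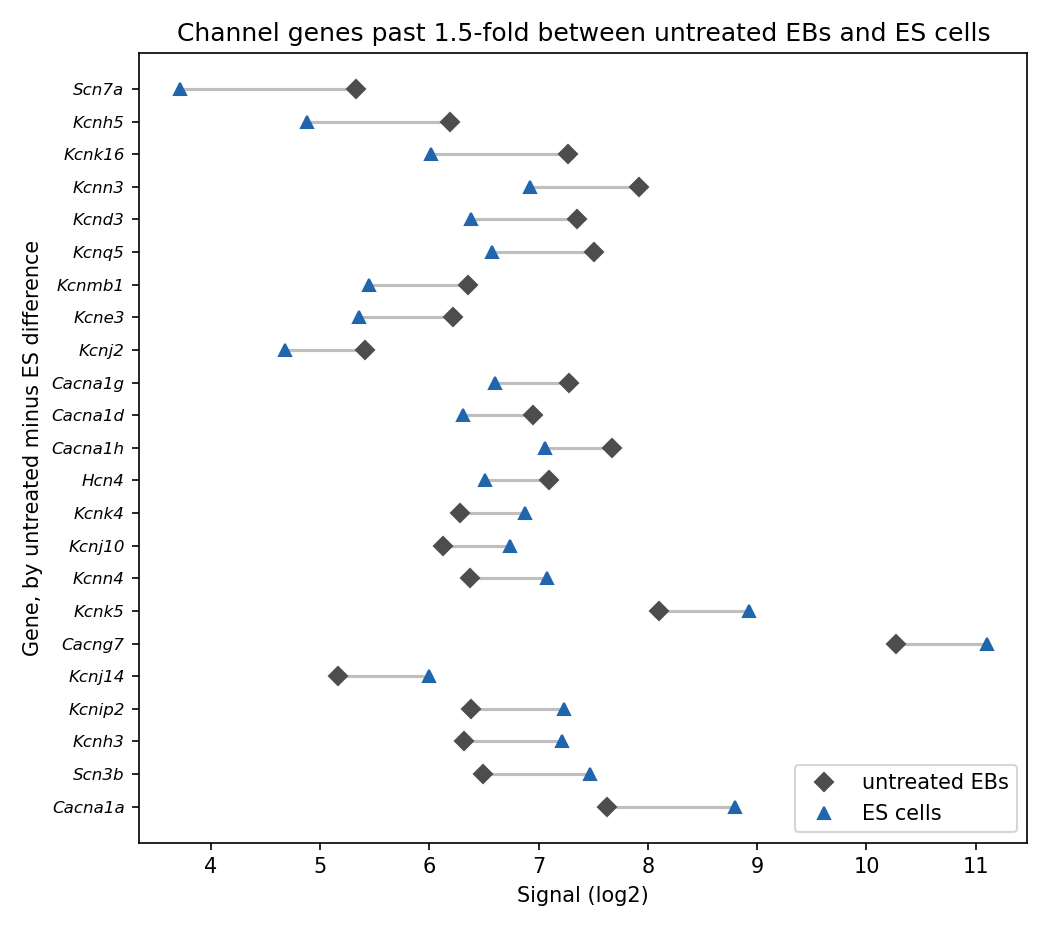
Log2 signal of the 23 channel genes past 1.5-fold between untreated EBs (diamonds) and ES cells (triangles), ordered by their difference, with 1 array per condition. Scn7a has the largest positive difference (5.33 against 3.71) and Cacna1a the largest negative (7.62 against 8.80).

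Partner genes outside the symbol rule were counted from lists of further subunits, clustering proteins, modulators and other cation channels. Of 68 measured, 0 were higher and 5 lower with bexarotene (1.48% and 2.15% of all genes were), 1 was higher and 4 lower with RA (2.07% and 2.22% of all genes), and none was past 1.5-fold between the ligands. In untreated EBs 14 were higher and 8 lower than in ES cells (11% and 8.52% of all genes), the largest differences being 2.45 for the axonal adhesion gene Nrcam, -2.07 for the kinase gene Sgk1, 1.84 for Fgf14 and 1.60 for the scaffold gene Dlg4 on the log2 scale. Those lower with bexarotene included Cacna2d1, the calcium channel alpha-2-delta subunit gene, Cntnap2, which clusters potassium channels beside the node of Ranvier, Fgf14, an intracellular partner of sodium channels, and the mechanosensitive channel gene Piezo2. Fgf14 had a signal of 5.85 in bexarotene EBs, 6.07 in RA EBs, 7.34 in untreated EBs and 5.51 in ES cells. Cntnap2 had 6.69, 6.84, 7.93 and 6.52, Piezo2 6.35, 6.21, 7.24 and 5.95, and Cacna2d1 6.88, 6.88, 7.63 and 6.75 in the same order. In each of these 4 genes the untreated array was above the other 3. These genes were picked as lower with bexarotene than on the untreated array, so nothing is read from this order. Cntn2, an axonal adhesion gene that acts with Cntnap2, was higher with RA instead, at a signal of 7.69 in bexarotene EBs, 8.20 in RA EBs, 7.16 in untreated EBs and 7.64 in ES cells.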

How the data were processed

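RNA of 4 mouse cultures was profiled, 1 array each. The log2 signals were deposited after the authors had background-corrected, normalized and summarized each probe set in Affymetrix Expression Console (RMA according to the article, GCRMA according to the submitters' processing notes); this decides how far low signals are compressed. Each array holds 35556 probe sets, of which 21789 have 1 symbol in the platform annotation, 1621 several and 12146 none. Among those with several, 3 that join Scn genes were left out. Some channel genes are not reported here.

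Differences of log2 signal were taken between arrays and called past 1.5-fold, the article's threshold, with pandas 2.3.3. No test is possible with 1 array per condition, and the number of arrays limits the precision. Named were called genes at or above the array median on the brighter array with a ligand, up to 10 in each direction against ES cells, and channel genes known from heart and neurons. Up to 4 partners were named per comparison. The other called genes, and relatives and neighbours given for comparison, were named after their values were seen. Members, gene lists (8 of marker genes, 4 of partners) and rules were chosen with earlier results of these data known. Markers of glia, skeletal muscle and extraembryonic endoderm had medians between 0.006 and 0.35 with the ligands, and none was past 1.5-fold. Those of neural progenitors had medians of 0.98 with bexarotene and 1.15 with RA. Promoter windows were matched by symbol, for 92 of 121 genes. The alternatives were a 2-fold threshold, quantile and loess (span 0.3) normalization with statsmodels 0.14.6, a filter at the array median, a floor at the 25th percentile, the mean of a gene's probe sets, and a wider symbol rule. The procedure was also run on simulated data with added differences larger than most of those called here. That checks the code and not the calls.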

Additional observations from a re-analysis of the deposited data

How the results depend on the processing

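No paired analysis was possible because each condition has 1 array. At 2-fold, 0 channel genes were higher and 3 lower with bexarotene, 1 higher and 4 lower with RA, and untreated EBs had 3 higher and 1 lower relative to ES cells. Leaving out genes below the array median on both arrays kept 40 channel genes for bexarotene, 43 for RA and 49 for untreated EBs against ES cells. Of these, 1 was higher and 4 lower with bexarotene, and 2 and 3 with RA. Against ES cells, 8 were higher and 9 lower in untreated EBs. With the mean of a gene's probe sets, 1 gene was higher with bexarotene, as Scn9a was no longer past the threshold. The 2-fold and median settings ask for more or leave fewer genes. Shares of all genes at these settings are not given, so nothing is read from the smaller counts. Quantile and loess normalization, the floor and the wider symbol rule kept each count within 1.5 times, and none of the 7 alternatives called a channel gene between the ligands. With quantile and with loess normalization, all 112 differences of 28 of the named genes moved by less than 0.115, and with the floor 4 moved by more. The floor ended the calls of Scn7a with both ligands and those of Scn7a and Kcnj2 against ES cells. Low signal limits the calls of Scn7a, Kcnh5, Kcnmb1, Kcnt2, Scn9a, Kcnk10, Kcnc1 and Kcnj14, which stayed below the array median.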

Other observations

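Scn2a, the sodium channel alpha subunit of early axons, is measured by 14 probe sets with 1 symbol, more than any other channel gene. None of the 14 was past 1.5-fold with either ligand. Between untreated EBs and ES cells, 2 were past 1.5-fold higher, with a highest log2 difference of 1.503, while the median over the 14 was 0.16 and the brightest probe set, which stands for the gene in the counts, had 0.09. The probe sets of this gene therefore disagree for that comparison.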
